A study of Mus musculus with 12 samples.

Results

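The comparison was between pancreatic tumours of mice heterozygous for Cdh11 and of wild-type mice, averaged over untreated and gemcitabine-treated animals, and it asked which differences the treatments share. All 12 libraries of the series entered it, 6 from heterozygous and 6 from wild-type mice, with the mean of the heterozygous groups set against the mean of the wild-type groups and each treatment kept as its own pair. Every mouse was a KPC mouse, a genetic model in which driver mutations switched on in the pancreas by Cre recombinase give rise to pancreatic ductal adenocarcinoma. The 4 groups were KPC/CDH11+/+ untreated, KPC/CDH11+/- untreated, KPC/CDH11+/+ given gemcitabine and KPC/CDH11+/- given gemcitabine, with 3 mice in each, so p-values measure the spread between mice. The strain background is given for all mice as C57BL/6 mixed with 129. The sources used here do not give the Cre driver, the kind of Cdh11 mutation, the ages or the drug schedule. Heterozygous mice keep an intact Cdh11 allele, so they model a reduced dose and not a loss.

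Cadherin 11 is a calcium-dependent adhesion protein of mesenchymal cells. It joins neighbouring fibroblasts through its extracellular repeats and is tied to the actin cytoskeleton through catenins. In pancreatic cancer it is known from the fibroblasts of the dense, collagen-rich stroma, a tissue that limits drug delivery and immune cell entry. Gemcitabine is a deoxycytidine analogue that stops DNA synthesis.

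The genes that passed the test are shown first through their sequences, because most of them have near-identical copies and the values depend on which copy a read was given to. Rps18 (chromosome 17, 33951999 to 33956001, minus strand, GRCm38) encodes a protein of the small ribosomal subunit. Gm10260 (chromosome 13, 97760072 to 97760632, minus strand) and Gm11361 (chromosome 13, 28257528 to 28258134, plus strand) are listed as protein-coding in GENCODE M21. Their coding sequences of 456 bases differ from that of Rps18 at 4 and 3 bases. The 180 bases that end at coding position 340, counted from the first base of the coding sequence, are printed with the 3 positions that differ in capitals.
Rps18: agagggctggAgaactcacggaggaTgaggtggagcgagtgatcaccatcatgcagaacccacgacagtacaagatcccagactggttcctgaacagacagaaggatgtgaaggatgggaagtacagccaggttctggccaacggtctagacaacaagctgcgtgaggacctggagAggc
Gm10260: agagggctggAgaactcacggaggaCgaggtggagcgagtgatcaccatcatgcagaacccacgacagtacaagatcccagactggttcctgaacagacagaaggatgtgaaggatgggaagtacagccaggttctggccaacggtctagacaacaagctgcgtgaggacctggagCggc
Gm11361: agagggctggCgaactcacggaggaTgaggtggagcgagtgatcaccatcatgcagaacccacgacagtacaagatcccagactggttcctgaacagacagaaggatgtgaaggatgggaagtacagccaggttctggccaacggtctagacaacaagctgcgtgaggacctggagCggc

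Another such family lies in a cluster of tripartite motif genes on chromosome 7. TRIM5-type proteins are E3 ubiquitin ligases with a RING domain that act in the cell's own defence against viruses. The coding sequence of Trim12c is 96.6% identical to that of Trim5 and, outside the 600 bases that Trim12a lacks, 96.4% identical to that of Trim12a. Coding positions 91 to 270 are printed with the 14 positions that differ in capitals.
Trim12c: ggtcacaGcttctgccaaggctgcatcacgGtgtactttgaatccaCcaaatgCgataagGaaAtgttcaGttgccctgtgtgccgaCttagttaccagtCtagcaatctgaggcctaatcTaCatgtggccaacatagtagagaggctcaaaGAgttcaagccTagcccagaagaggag
Trim12a: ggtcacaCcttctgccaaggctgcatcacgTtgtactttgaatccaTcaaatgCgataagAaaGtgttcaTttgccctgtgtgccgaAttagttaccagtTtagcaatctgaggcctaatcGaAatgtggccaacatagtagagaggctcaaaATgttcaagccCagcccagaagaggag
Trim5: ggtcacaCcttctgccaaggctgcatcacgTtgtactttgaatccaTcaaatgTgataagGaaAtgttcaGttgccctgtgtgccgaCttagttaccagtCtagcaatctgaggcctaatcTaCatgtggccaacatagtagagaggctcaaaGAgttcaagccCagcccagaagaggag

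Sequencing depth ran from 39388328 to 56559413 expected counts (median 45785246). The test covered 24065 genes, by edgeR's quasi-likelihood test and Benjamini-Hochberg adjustment over all of them. Mice of the same group varied with a biological coefficient of variation of 46.4%. On simulated counts with the same libraries, the test of the genotype average recovered 20% of 50 genes changed 2-fold and 70% of those changed 4-fold, so changes under 2-fold were hardly detectable at 3 mice a group. The genotypes differed in sex and in tissue content. Xist was above 100 CPM (library-scaled counts) in 5 of 6 wild-type libraries and in 1 of 6 heterozygous libraries, and Y-linked genes were present in the others. Summed acinar genes lay between 8.53 and 665 CPM in wild-type libraries and between 11.3 and 40.5 CPM in heterozygous libraries. The duct markers Krt19 and Epcam were present in all 12 libraries, and Krt19 averaged between 314 and 687 CPM in the 4 groups. In the treated mice sex and genotype coincide and cannot be told apart. Fits with a sex covariate, given below, cannot separate them there either.

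Cdh11 (ENSMUSG00000031673, chromosome 8, 102632095 to 102785642, minus strand) itself was lower in untreated heterozygous mice and differed little between the genotypes in treated mice. Untreated wild-type libraries held 10221, 12258 and 8374 counts, and untreated heterozygous libraries 6759, 5326 and 3710. Treated wild-type libraries held 6505, 2675 and 5116 counts, and treated heterozygous libraries 5376, 6073 and 3588. The untreated genotypes did not overlap, while the treated ones overlapped and the lowest of the 12 counts was a treated wild-type library. The log2 fold change of the genotype average was -0.51 ± 0.26 (SE; 95% interval -1.08 to 0.06), with an adjusted p of 0.70. It was -0.998 in untreated and -0.02 in treated mice, and the difference of these values had an unadjusted p of 0.088. An exact two-sided permutation test of log2 CPM, with genotype labels exchanged within each treatment, gave p = 0.165, where 0.005 is the smallest value 400 relabellings allow. Whether the counted reads come from the altered part of the gene is not known, so these counts check the genotype labels only in part.

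Averaged over both treatments, 8 genes differed between the genotypes, which is 0.0332% of the genes tested. The 5 that rose in heterozygous tumours (0.0208%) were Trim12a, Trim5, Trim30d, H2-T23 and Rps13, and the 3 that fell (0.0125%) were Gm10260, Gm11361 and BC023719. All 8 had an unadjusted p under 0.05 and the same direction in each treatment, and none overlapped between the 6 heterozygous and the 6 wild-type libraries. Over all genes tested, 68, or 0.283%, had no overlap between the genotypes, 32 of them (0.133%) higher and 36 (0.15%) lower in heterozygous mice. DESeq2 called 304 genes in the same comparison, 138 higher and 166 lower, and limma voom called 6. With a sex covariate 3 genes passed, and across the fits without 1 library between 3 and 13.

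**Figure D1:**
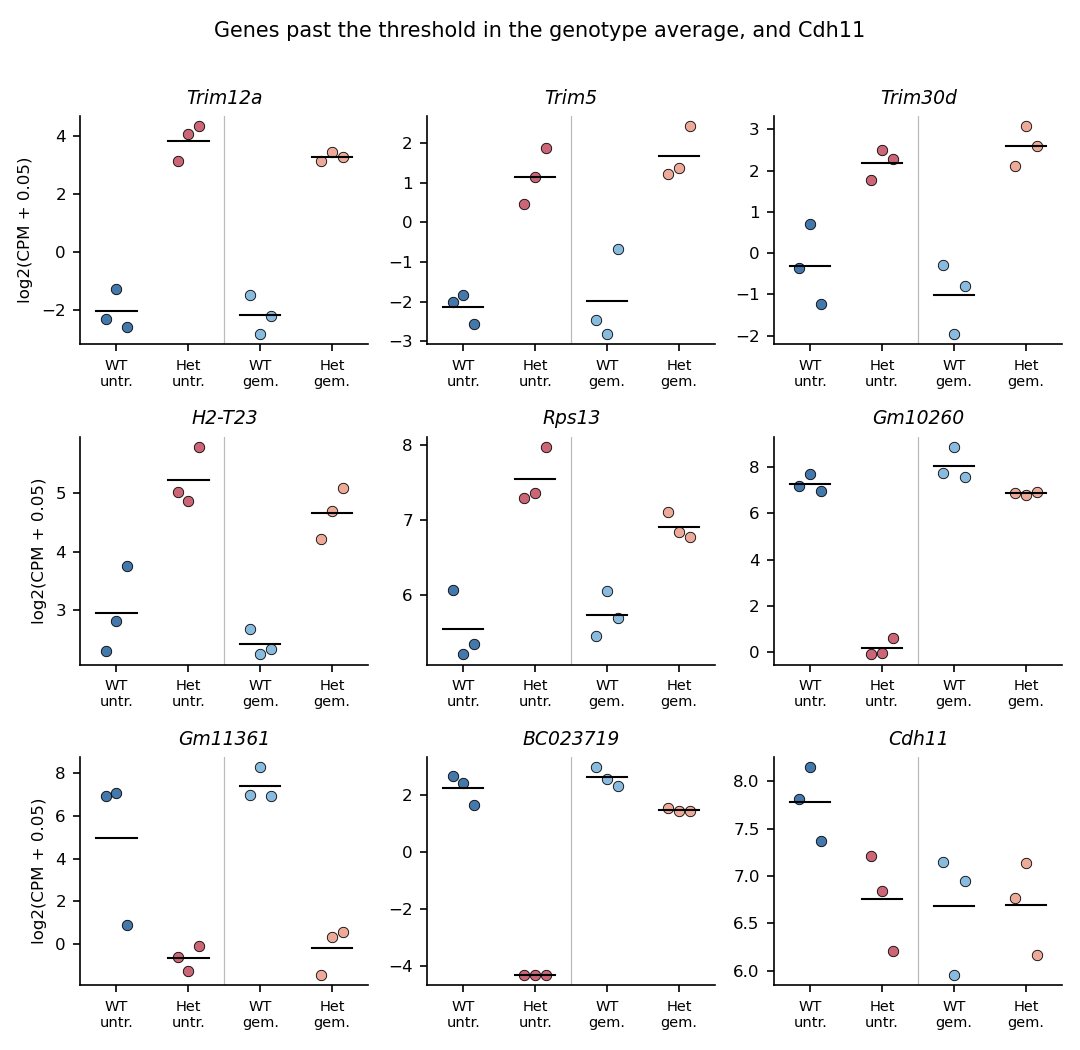
Each panel plots log2(CPM + 0.05) of 1 gene for the 12 libraries, as points by genotype and treatment (WT wild-type, Het heterozygous, untr. untreated, gem. gemcitabine), with the group mean as a line. The 8 called genes separate the genotypes in each treatment, by unequal distances for Gm10260 and BC023719, while Cdh11 overlaps in treated mice.

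Trim12a (ENSMUSG00000066258, chromosome 7, 104299894 to 104315466, minus strand) showed the clearest separation of the 8. Wild-type libraries held 7, 16 and 6 counts untreated and 14, 4 and 7 counts treated. Heterozygous libraries held 398, 778 and 1018 counts untreated and 431, 474 and 481 counts treated. Every heterozygous library was thus far above every wild-type library. On the log2 scale the difference was 5.91 ± 0.41 (SE), with an adjusted p of 1.5e-04, and it was 6.15 in untreated and 5.67 in treated mice. It was the sole gene called within treated mice, where 0.00416% of genes passed, and its call held without each library in turn and in all 12 other fits of the average.

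Trim5 (chromosome 7, 104263386 to 104288094, minus strand) and Trim30d (chromosome 7, 104470014 to 104507849, minus strand) flank Trim12a and moved the same way. Trim5 counts were 9, 10 and 6 in untreated wild-type, 60, 99 and 181 in untreated heterozygous, 6, 4 and 24 in treated wild-type and 113, 109 and 264 in treated heterozygous mice. The fitted log2 fold change was 3.66 ± 0.51 (SE), with an adjusted p of 0.048. Trim30d, which has no near-identical copy among the transcripts searched, held 33, 68 and 19 counts in untreated wild-type, 154, 258 and 243 in untreated heterozygous, 35, 9 and 22 in treated wild-type and 213, 359 and 299 in treated heterozygous mice. Its log2 fold change was 3.00 ± 0.42 (SE), with an adjusted p of 0.048. The calls of Trim5 and Trim30d stood near the threshold: Trim5 stayed called in 2 and Trim30d in 0 of the 12 fits without 1 library, with adjusted p up to 0.18 for each.

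The neighbours of these genes did not all do the same. Trim12c (chromosome 7, 104338754 to 104353362) was 0.64 lower on the log2 scale in heterozygous mice with an unadjusted p of 0.022. Trim34b was 1.45 lower with an unadjusted p of 0.0079, Trim34a was 0.85 higher with 0.013, and Trim30a was 0.39 higher with 0.25. None of these 4 passed the adjusted threshold. They were chosen for their position after the values of the called genes were seen. Between 103 and 108 Mb of chromosome 7, 61 genes were tested and 3 were called, against 0.0332% of all genes. Of the 61, 13 had an unadjusted p under 0.05, a share of 21.3% against 7.67% of all genes.

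Counts summed over Trim12c, Trim12a and Trim5 showed no such separation. The sums lay between 958 and 1924 in wild-type and between 1306 and 2065 in heterozygous libraries, and the log2 fold change was 0.25 ± 0.22 (SE), with an adjusted p of 0.85. What differed was the division. Trim12c took between 98.2% and 99.2% of the family's counts in wild-type libraries and between 34.6% and 66.1% in heterozygous libraries. Trim12a took between 0.364% and 1.28% in wild-type and between 23.3% and 58% in heterozygous libraries.

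**Figure D2:**
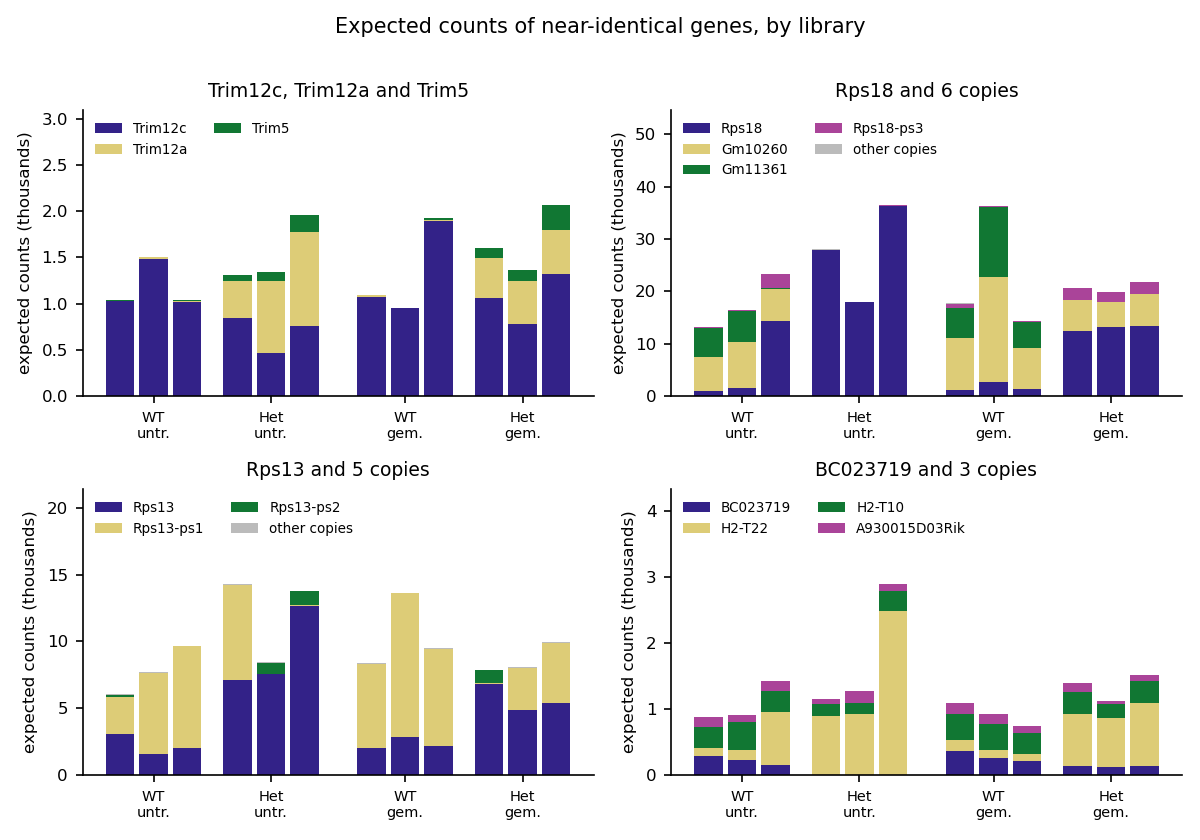
Bars stack the expected counts (axis in units of 1000) that each of the 12 libraries has for near-identical genes of 4 families, with libraries grouped by genotype and treatment (WT wild-type, Het heterozygous, untr. untreated, gem. gemcitabine). The height of the Trim12 bars overlaps between genotypes while their division does not, and the wild-type untreated library 3 divides its Rps18 counts as the treated heterozygous libraries do.

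The Rps18 family showed the division most sharply, in 3 levels. In 5 of the 6 wild-type libraries Rps18 took between 7.04% and 9.24% of the family's counts, Gm10260 between 48.9% and 55.5% and Gm11361 between 32.7% and 41.4%. In the 3 untreated heterozygous libraries Rps18 took 99.4%, 99.4% and 99.5%, Gm10260 at most 0.238% and Gm11361 at most 0.123%. In the 3 treated heterozygous libraries Rps18 took 60.6%, 66.1% and 61.5% and Gm10260 28.1%, 23.9% and 27.6%. The sixth wild-type library, untreated replicate 3, had 61.2% for Rps18 and 26.8% for Gm10260, values of the treated heterozygous libraries. Levels were assigned after the values were seen and are given with no test. The labels give a mixed C57BL/6 and 129 background and no strain allele for single mice, so whether alleles at these loci, or a mislabelled library, follow these levels was not tested, which limits what the calls in these families say of Cdh11 dose.

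Gm10260 fell in heterozygous mice with a log2 fold change of -4.23 ± 0.28 (SE) and an adjusted p of 1.5e-04. Its counts were 6480, 8947 and 6253 in untreated wild-type, 41, 43 and 76 in untreated heterozygous, 9819, 20036 and 7833 in treated wild-type and 5779, 4755 and 6018 in treated heterozygous mice. The fall was much deeper in untreated mice, where the log2 fold change was -7.14, than in treated mice, where it was -1.32. The difference of these effects was 5.82 with an adjusted p of 0.0048, so the direction was shared by the treatments but the size was not.

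Gm11361 fell by 7.32 ± 0.94 (SE) on the log2 scale, with an adjusted p of 0.032. Its counts were 5490, 5908 and 92 in untreated wild-type, 28, 17 and 45 in untreated heterozygous, 5793, 13309 and 5044 in treated wild-type and 16, 52 and 73 in treated heterozygous mice. Wild-type untreated replicate 3, with 92 counts, was close to the heterozygous libraries and far from the other 5 wild-type ones. The call held in 1 of the 12 fits without 1 library. Rps18 itself was 2.55 ± 0.57 (SE) higher on the log2 scale in heterozygous mice with an adjusted p of 0.28, and the 7 genes of the family summed gave 0.18 ± 0.24 (SE), with an adjusted p of 0.93.

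Rps13 (chromosome 7, 116331505 to 116334195, minus strand), another protein of the small ribosomal subunit, rose by the same measure. Its counts were 3045, 1604 and 2059 in untreated wild-type, 7139, 7576 and 12644 in untreated heterozygous, 2005, 2865 and 2159 in treated wild-type and 6837, 4883 and 5412 in treated heterozygous mice. Averaged over the treatments, the log2 fold change was 1.57 ± 0.20 (SE), with an adjusted p of 0.031, and the call held in 5 of the 12 fits without 1 library. Summed with its 5 copies the value was 0.10 ± 0.18 (SE), with an adjusted p of 0.95. Rps13 took between 20.8% and 50.3% of that family's counts in wild-type and between 49.9% and 91.7% in heterozygous libraries, with the pseudogene Rps13-ps1 taking between 45.6% and 78.7% in wild-type libraries.

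Among the called genes that have near-identical copies, only H2-T23 stayed called when copies were summed. It lies in the class I region of the major histocompatibility complex on chromosome 17. H2-T23 (ENSMUSG00000067212, chromosome 17, 36029773 to 36032855, minus strand) encodes Qa-1, a nonclassical class I molecule that presents class I leader peptides to inhibitory receptors of natural killer and T cells. Wild-type libraries held 221, 303 and 682 counts untreated and 289, 202 and 209 treated. Heterozygous libraries held 1481, 1352 and 2802 counts untreated and 923, 1114 and 1700 treated. The highest wild-type value, 682, was again untreated replicate 3, and it stayed below the lowest heterozygous value, 923. On the log2 scale the difference was 2.25 ± 0.28 (SE), with an adjusted p of 0.031, and the arms gave 2.21 and 2.30. Summed with H2-T-ps, a pseudogene copy, it was 1.68 ± 0.23 (SE), with an adjusted p of 0.048, just under the threshold. Within that sum H2-T23 took between 54.6% and 79.8% in wild-type libraries, with the highest share in untreated replicate 3. It took between 90.1% and 99.6% in heterozygous libraries, so the division differed here too. The call held in 6 of the 12 fits without 1 library. With a sex covariate it ended, at an adjusted p of 0.71, while the log2 fold change was 2.33.

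BC023719 (chromosome 17, 36111426 to 36117121, plus strand) is an antisense RNA gene that overlaps H2-T10, which lies on the minus strand. Its counts were 290, 231 and 156 in untreated wild-type, 0, 0 and 0 in untreated heterozygous, 360, 252 and 210 in treated wild-type and 142, 115 and 135 in treated heterozygous mice. It was at least 78.5-fold lower in untreated heterozygous mice, taking 3 counts per library as the floor, and 1.18 lower on the log2 scale in treated heterozygous mice. The genotype average had an adjusted p of 4.0e-04 and the difference of effects had an adjusted p of 0.0048. Summed with H2-T22, H2-T10 and A930015D03Rik, the direction turned and the log2 fold change was 0.56 ± 0.21 (SE), with an adjusted p of 0.575. The sources used here do not say whether counting used strand, so reads of BC023719 and of H2-T10 on the opposite strand may not be separable.

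H2-T22, a nonclassical class I gene beside H2-T23, was 2.24 ± 0.44 (SE) higher on the log2 scale, with an unadjusted p of 3.6e-04 and an adjusted p of 0.22. Its counts were 118, 148 and 802 in untreated wild-type, 895, 929 and 2487 in untreated heterozygous, 175, 130 and 112 in treated wild-type and 776, 742 and 959 in treated heterozygous mice. Wild-type untreated replicate 3 again lay among the heterozygous libraries. Summed with BC023719, H2-T10 and A930015D03Rik, the log2 fold change was 0.56, as given above. H2-T22 took 56.6% of that family's counts in wild-type untreated replicate 3 and between 13.5% and 16.2% in the other wild-type libraries. In heterozygous libraries it took between 55.7% and 86%. H2-T10 went the other way, with between 22% and 46.5% in wild-type and between 10.6% and 24.8% in heterozygous libraries. H2-Eb1, a class II beta chain gene of the same complex, held 27, 250 and 1308 counts in untreated wild-type, 3272, 772 and 8762 in untreated heterozygous, 46, 23 and 39 in treated wild-type and 1226, 7672 and 4464 in treated heterozygous mice. Its log2 fold change was 4.95 ± 0.91 (SE), with an adjusted p of 0.19. Of 216 genes tested between 33 and 38 Mb of chromosome 17, 2 were called, against 0.0332% of all genes. An unadjusted p under 0.05 was found for 17.6% of them, against 7.67% of all genes. This window and that on chromosome 7 were set around called genes after the calls were seen. Both hold near-identical genes among which counts are divided, so their genes are not separate observations.

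Of the 19 class I presentation genes tested, 14 were higher and 5 lower in the average. H2-Q1 was among the lower ones, unlike H2-T23 and H2-T22. It was 3.30 ± 0.47 (SE) lower on the log2 scale in heterozygous mice, at an adjusted p of 0.053 just outside the threshold. Counts were 43, 70 and 27 in untreated wild-type, 0, 1 and 2 in untreated heterozygous, 60, 37 and 34 in treated wild-type and 16, 26 and 21 in treated heterozygous mice. H2-K1, a classical class I heavy chain gene, was 1.15 ± 0.31 (SE) higher with an adjusted p of 0.37.

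Neither called region adjoins Cdh11. Of 502 genes tested within 20 Mb of Cdh11 on chromosome 8, 34, or 6.77%, had an unadjusted p under 0.05, against 7.67% of all genes. By edgeR's test 0 of the 502 were called, against 0.0332% of all genes, and 0 separated the genotypes, against 0.283%. At such low shares these values of 0 say little of the region. The 8 calls lay on chromosomes 7, 13 and 17.

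For 4 of the 5 genes that rose and for Trim12c, RefSeq's windows on GRCm38.p6 were searched for GAAANNGAAA on either strand. This is the core of the interferon-stimulated response element. Each window held the 250 bases before RefSeq's start, which can differ from the gene start given above. Rps13 was searched beside them. The windows of Trim5, Trim30d and H2-T23 are printed because, of the called genes searched, they are those with a match, which is in capitals. No match lay in the window of Trim12a, which rose most. That window stopped at 104315496, before the gene start at 104315466 given above. The letters at its end stand just before the match in the Trim5 window. The Trim12a bases that follow them were not searched, so the window cannot show whether a match lies there. The H2-T23 window reached into the gene span given above, whose upper end is 36032855. Its match lies inside that span and not before it.
Trim5, chr7:104288107-104288356, minus strand: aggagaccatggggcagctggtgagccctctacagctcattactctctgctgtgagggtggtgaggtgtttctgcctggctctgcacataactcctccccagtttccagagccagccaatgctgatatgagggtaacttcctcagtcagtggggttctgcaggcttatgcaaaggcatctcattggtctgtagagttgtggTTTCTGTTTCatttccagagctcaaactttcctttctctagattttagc
Trim30d, chr7:104507850-104508099, minus strand: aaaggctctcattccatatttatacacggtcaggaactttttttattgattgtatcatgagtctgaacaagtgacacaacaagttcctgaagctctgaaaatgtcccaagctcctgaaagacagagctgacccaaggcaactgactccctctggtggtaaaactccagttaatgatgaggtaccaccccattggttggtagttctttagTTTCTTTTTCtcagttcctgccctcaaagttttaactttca
H2-T23, chr17:36032702-36032951, minus strand: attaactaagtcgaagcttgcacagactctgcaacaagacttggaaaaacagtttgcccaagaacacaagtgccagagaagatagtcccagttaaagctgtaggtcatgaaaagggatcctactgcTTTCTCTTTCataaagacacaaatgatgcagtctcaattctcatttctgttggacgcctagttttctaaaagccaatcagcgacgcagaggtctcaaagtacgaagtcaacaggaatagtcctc
Trim12c, which was not higher in heterozygous mice, also held a match, and the window of Rps13 held none. Of 32851 such windows 978, or 2.98%, held at least 1 match. The motif was chosen after the called genes were known, and a match is a description of the letters only.

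Outside the called genes, the question of what untreated and treated tumours share was put to every gene at an unadjusted p under 0.05 in each treatment. In the same direction, 148 genes met this, 0.615% of those tested, 77 (0.32%) higher and 71 (0.295%) lower in heterozygous mice. In opposite directions, 205 genes met it, 0.852% of those tested, of which 142 (0.59%) were lower in untreated and higher in treated heterozygous mice and 63 (0.262%) the reverse. Within untreated mice 12.2% of genes were under that p, 5.51% higher and 6.65% lower, and within treated mice 7.55%, 4.66% higher and 2.89% lower. The difference of the effects was under it for 12.7%, 7.14% with the higher and 5.52% with the lower value in treated mice. The 148 make up 5.05% of the 2928 genes under that p in untreated mice and 8.15% of the 1816 in treated mice. Across all 24065 genes 44.7% had the same sign in both treatments, and the Pearson correlation of the log2 fold changes was 0.079; genes are not independent replicates, and no p is given. The balance moved with the fit. It was 105 to 27 with a sex covariate, 164 to 90 with an acinar covariate, 165 to 75 without wild-type untreated replicate 2, and 110 to 353 without wild-type treated replicate 1.

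**Figure D3:**
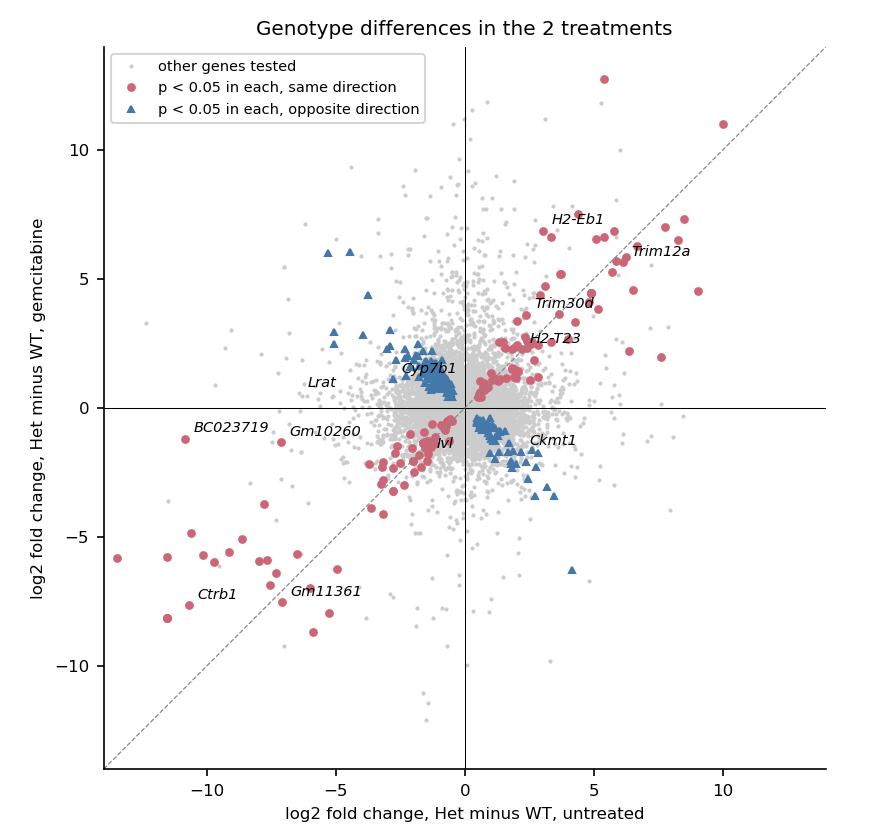
Each point is a gene tested, with its log2 fold change between heterozygous and wild-type mice in untreated tumours on the horizontal axis and in gemcitabine-treated tumours on the vertical axis, and a dashed line of equal values. The 148 genes in the same direction (circles) and the 205 in opposite directions (triangles) fill all 4 quadrants, and Trim12a, H2-T23 and Gm11361 lie near the line.

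Among the shared genes that are not called, those lower in heterozygous mice included Ivl. Ivl encodes involucrin, a protein of the cornified envelope of squamous epithelium. The squamous and basal-like list it belongs to had 7 members higher and 6 lower. Its counts were 2988, 2500 and 4822 in untreated wild-type, 1117, 1069 and 1712 in untreated heterozygous, 2837, 3645 and 4765 in treated wild-type and 1054, 1730 and 683 in treated heterozygous mice. The lowest wild-type library, 2500, was above the highest heterozygous one, 1730. The genotype difference was, in log2, -1.61 ± 0.27 (SE), with an adjusted p of 0.17.

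Sall4, a zinc finger transcription factor of early embryonic and germ cells, was at 27, 164 and 65 counts in untreated wild-type, 6, 15 and 0 in untreated heterozygous, 122, 105 and 239 in treated wild-type and 9, 22 and 2 in treated heterozygous mice. Its genotypes did not overlap, at a log2 fold change of -3.75 ± 0.80 (SE) and an adjusted p of 0.25.

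Wif1, a secreted inhibitor that binds Wnt ligands, was lower in heterozygous mice with overlap at the edges. Its counts were 620, 150 and 420 in untreated wild-type, 50, 62 and 15 in untreated heterozygous, 1101, 241 and 596 in treated wild-type and 66, 213 and 135 in treated heterozygous mice. The log2 fold change was -2.75 ± 0.53 (SE), with an adjusted p of 0.22. Kdm2b, a histone demethylase that recruits Polycomb complexes to CpG islands, was 0.94 ± 0.17 (SE) lower on the log2 scale, with an adjusted p of 0.17, -0.60 in untreated and -1.28 in treated mice.

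The remaining shared genes with the smallest p among the lower ones were digestive enzyme genes of acinar cells: Ctrb1, Cpb1, Amy2a2 and Amy2a3. Ctrb1, a chymotrypsinogen, held 37, 3813 and 13741 counts in untreated wild-type, 3, 3 and 4 in untreated heterozygous, 4859, 1 and 404 in treated wild-type and 6, 20 and 0 in treated heterozygous mice. Of the wild-type libraries 5 were above the highest heterozygous count, 20, and the other held 1. Amy2a2 and Amy2a3 have the same counts in every library and are copies that the counting cannot separate. Of 27 acinar genes tested, 23 were lower at an unadjusted p under 0.05 in the average and 0 passed the adjusted threshold. Their median log2 fold change was -6.61, or -3.65 with the 11 genes that have an empty group set at their bound, against 0.01 over all genes.

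Higher in heterozygous mice and shared, Dynlt1c, a light chain gene of the dynein motor, was at 527, 426 and 517 counts in untreated wild-type, 619, 898 and 1020 in untreated heterozygous, 317, 337 and 365 in treated wild-type and 667, 660 and 846 in treated heterozygous mice. Scaled to CPM, its genotypes did not overlap. Near-identical copies were searched for the called genes alone, so whether Dynlt1c shares reads with a copy was not examined. The fitted log2 fold change was 0.86 ± 0.15 (SE), with an adjusted p of 0.17. Cd5, a surface receptor of T cells and some B cells, was at 22, 40 and 16 counts in untreated wild-type, 100, 59 and 132 in untreated heterozygous, 23, 7 and 10 in treated wild-type and 36, 94 and 78 in treated heterozygous mice. The genotype difference was, in log2, 2.06 ± 0.42 (SE), with an adjusted p of 0.22.

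**Figure D4:**
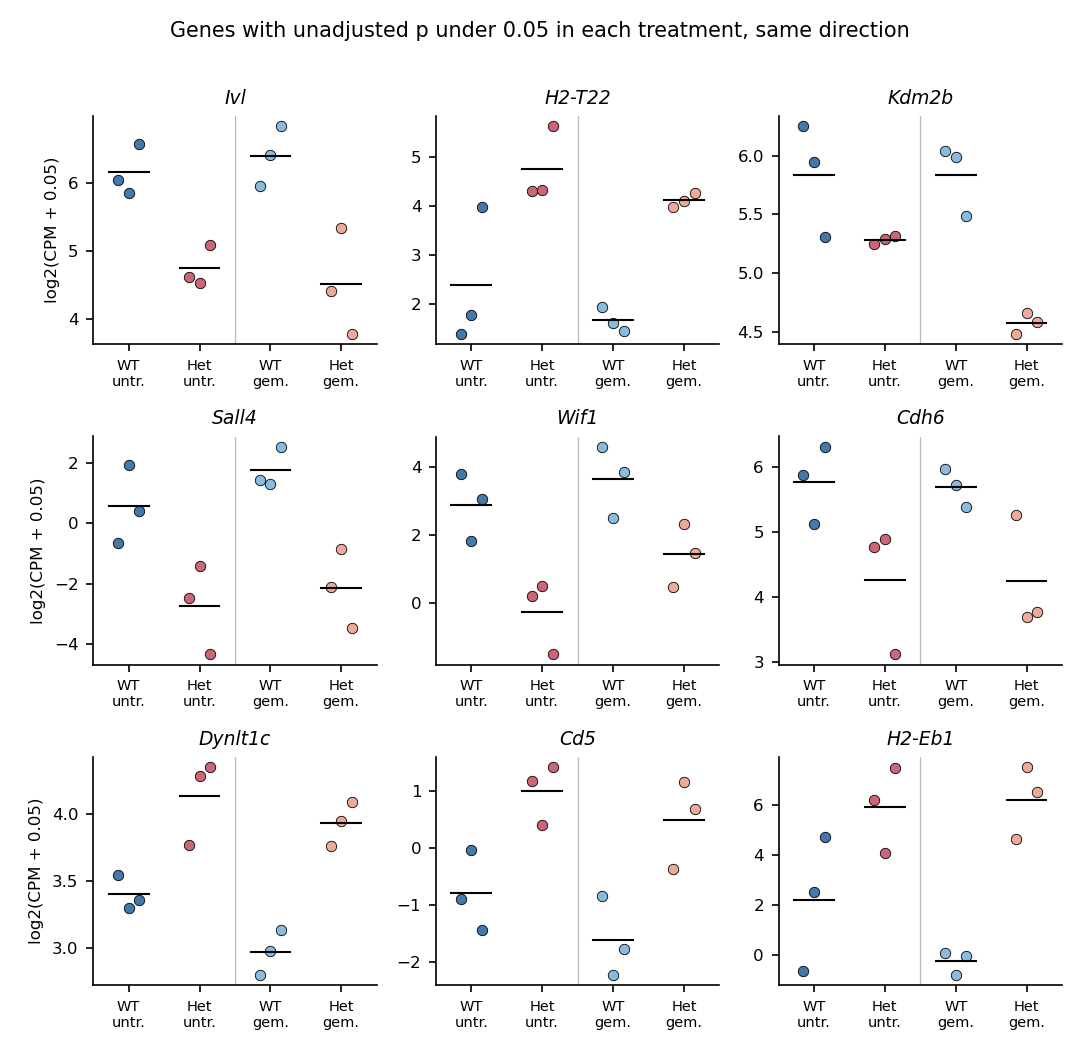
Each panel plots log2(CPM + 0.05) of 1 gene in the 12 libraries, as points by genotype and treatment (WT wild-type, Het heterozygous, untr. untreated, gem. gemcitabine), with the group mean as a line. Ivl, Sall4 and Dynlt1c separate the genotypes over both treatments, while H2-T22, Kdm2b, Wif1, Cdh6, Cd5 and H2-Eb1 overlap in at least 1 library.

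The genes with the smallest p for a difference between the treatments show what the average hides. Lrat, the enzyme that stores retinol as esters in stellate cells, held 330, 382 and 499 counts in untreated wild-type and 0, 8 and 6 in untreated heterozygous mice, but 68, 77 and 103 in treated wild-type and 88, 109 and 215 in treated heterozygous mice. It fell in untreated mice, at an adjusted p of 0.029, and is 1 of the 4 genes, 0.0166% of those tested, that passed there. Its average of -2.92 ± 0.48 (SE) on the log2 scale is made of -6.43 and 0.59, and the difference, 7.01, had an adjusted p of 0.11. Cyp7b1, an oxysterol hydroxylase, averaged 22.3 ± 12.2 CPM in untreated wild-type, 3.29 ± 1.06 in untreated heterozygous, 4.35 ± 0.486 in treated wild-type and 9.52 ± 2.44 in treated heterozygous mice (mean ± SD, n = 3). Fgf10, a growth factor of mesenchyme, and Naalad2, a peptidase, had their group means in the same order. Trem1, an activating receptor of myeloid cells, was also lower in untreated and higher in treated heterozygous mice, with group means of 16.9, 9.08, 6.38 and 23.3 CPM. Qtrt1, a transfer RNA modifying enzyme, went the other way, with 9.78 ± 1.24 CPM in untreated wild-type, 25.4 ± 1.52 in untreated heterozygous, 25.1 ± 6.61 in treated wild-type and 13.2 ± 2.31 in treated heterozygous mice. Snord22, Ckmt1, Eif3g and Dnajc22 had these signs too. None of these 10 genes had an adjusted p of 0.05 or less for the difference; only Gm10260 and BC023719 did, 0.00831% of the genes tested.

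The gene lists that follow were described by counts and medians, beside all genes tested, whose median log2 fold change was 0.01 in the average, 0.04 in untreated and -0.03 in treated mice. At an unadjusted p under 0.05, 3.7% of all genes were higher and 3.96% lower in heterozygous mice in the average. Of all members of these lists 1, H2-T23, passed the adjusted threshold in the average.

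**Figure D5:**
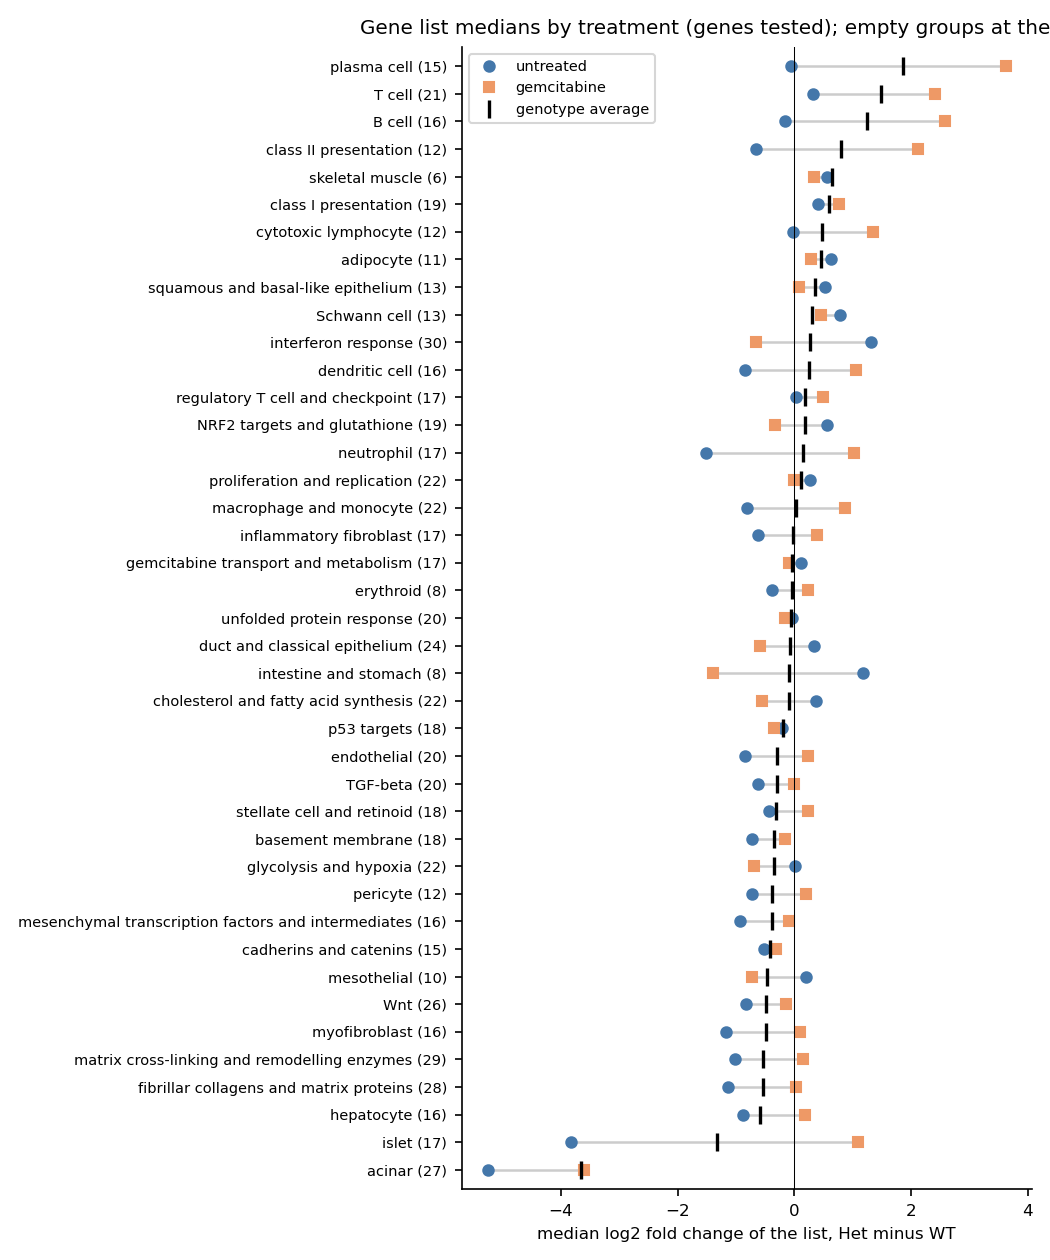
Each row is a gene list with its number of genes tested, and symbols give its median log2 fold change between heterozygous and wild-type mice in untreated (circle) and treated (square) tumours and in the average (bar), with genes that have an empty group at their bound. Stromal lists have their untreated median below their treated one, immune cell lists have treated medians above 0, and the acinar list is below 0 in each treatment.

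Adhesion genes related to Cdh11, listed together with Cdh11 itself, had medians below 0 in both treatments. Of 15 cadherin and catenin genes 1 was higher and 14 were lower in heterozygous mice, 3 of them at an unadjusted p under 0.05, with medians of -0.41 in the average, -0.52 in untreated and -0.32 in treated mice. Cdh6, a classical cadherin, averaged 57.5 ± 22.3 CPM in untreated wild-type, 21.9 ± 11.5 in untreated heterozygous, 52.3 ± 10.5 in treated wild-type and 21.6 ± 14.5 in treated heterozygous mice (mean ± SD, n = 3). Its log2 fold change was -1.34 ± 0.37 (SE), with an adjusted p of 0.39. Cdh5, the cadherin of endothelial junctions, was 1.06 lower on the log2 scale in untreated mice and 0.10 higher in treated mice. Cdh1, the cadherin of epithelium, was 0.13 higher and 0.96 lower in the same order. With a sex covariate the list's median was -0.10.

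Matrix genes were lower in untreated heterozygous mice and had a median near 0 in treated ones, with 0 past the adjusted threshold. Among 28 genes of fibrillar collagen and other matrix proteins, 22 had lower averages, 12 at an unadjusted p under 0.05, with medians of -0.54 in the average, -1.13 in untreated and 0.04 in treated mice. Col1a1, a chain of type I collagen, averaged 4802 ± 1480, 1635 ± 579, 2876 ± 1650 and 1594 ± 966 CPM in untreated wild-type, untreated heterozygous, treated wild-type and treated heterozygous mice (mean ± SD, n = 3). On the log2 scale the difference was -1.20 ± 0.38 (SE), with an adjusted p of 0.46. Col3a1 and Col6a3 were below 0 in both treatments, at -1.11 and -0.52 and at -1.44 and -0.99. Lum, a small proteoglycan that spaces collagen fibrils, was -1.88 in untreated and 0.18 in treated mice. These values are from bulk tissue, in which fewer cells of a type and less RNA per cell cannot be told apart.

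The enzymes that cross-link or cut matrix had medians of -0.53 in the average, -1.01 in untreated and 0.14 in treated mice over 29 genes, with 7 lower and 1 higher at an unadjusted p under 0.05, and -0.31 without untreated wild-type replicate 3. Mmp10, Mmp11, Fap and Mmp14 had the smallest p, with averages from -1.49 to -0.66. Of 18 basement membrane genes 6 were lower at that p and the medians were -0.35, -0.72 and -0.17. Nid1, which links laminin to type IV collagen, was the first of them, at -0.71 ± 0.19 (SE) and an adjusted p of 0.36. Of 16 myofibroblast genes 4 were lower, with medians of -0.49, -1.17 and 0.09, and -0.19 with a sex covariate; Acta2, smooth muscle actin, was -1.31 in untreated and 0.15 in treated mice. Of 20 endothelial genes 4 were lower, with medians of -0.30, -0.84 and 0.24, and -0.13 without untreated wild-type replicate 2. Summed matrix genes ranged from 10594 to 32855 CPM in heterozygous and from 17682 to 43040 CPM in wild-type libraries.

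Wnt genes leaned lower. Of 26 tested 5 were lower and 1 higher at an unadjusted p under 0.05, and the medians were -0.48, -0.83 and -0.15. The median of the average was -0.15 with a sex covariate and -0.26 without treated wild-type replicate 1. Beside Wif1, the receptor gene Fzd2 was -0.81 ± 0.25 (SE) and the transcription factor gene Lef1 -1.15 ± 0.39 (SE), while the ligand gene Wnt2b was 0.85 ± 0.25 (SE), all with adjusted p of 0.42 or more. Of 20 TGF-beta genes 3 were lower and 1 higher at that p, with medians of -0.30, -0.62 and -0.01. Ltbp2, a binding protein of the extracellular matrix, was the higher one at 0.83 ± 0.24 (SE).

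Lymphoid genes were higher in the average, mainly through treated mice. Of 21 T cell genes 20 were higher in heterozygous mice, 11 at an unadjusted p under 0.05, with medians of 1.48 in the average, 0.32 in untreated and 2.41 in treated mice. The median of the average was 0.79 without untreated heterozygous replicate 3 and 0.80 with a sex covariate. Cd3e, a chain of the T cell receptor complex, averaged 0.371 ± 0.537, 1.38 ± 0.735, 0.0686 ± 0.0207 and 2.02 ± 1.55 CPM in untreated wild-type, untreated heterozygous, treated wild-type and treated heterozygous mice (mean ± SD, n = 3). The fitted log2 fold change was 3.36 ± 0.84 (SE), with an adjusted p of 0.32. Over both treatments the list's summed CPM went the other way, with medians of 117 in heterozygous and 158 in wild-type libraries. By group, in the order above, the sums averaged 182, 89.7, 126 and 158 CPM, so they were higher in treated heterozygous mice. Thy1, a member that fibroblasts also express, was -0.89 ± 0.28 (SE). It made up most of these sums, at 159, 57.4, 108 and 87.8 CPM in the same groups.

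B cell and plasma cell genes had their difference within the treated mice. The 16 B cell genes had medians of 1.25 in the average, -0.16 in untreated and 2.58 in treated mice, and the 15 plasma cell genes 1.86, -0.05 and 3.63. Summed B cell genes were at 18.4, 327 and 187 CPM in treated heterozygous libraries and at 22.3, 61.1 and 13.5 CPM in treated wild-type libraries. Heterozygous replicates 2 and 3 thus carried that difference. Igha, the heavy chain of immunoglobulin A, averaged 50.3 ± 27.1 CPM in untreated wild-type, 53.5 ± 32.6 in untreated heterozygous, 39.6 ± 24.7 in treated wild-type and 491 ± 401 in treated heterozygous mice (mean ± SD, n = 3). Summed plasma cell genes were at 752, 2502 and 5525 CPM in the 3 treated heterozygous libraries and between 597 and 1025 CPM in all others, so 2 libraries carried the difference. Without untreated heterozygous replicate 3 the median of the average was 0.70 for B cell and 1.19 for plasma cell genes, and with a sex covariate 0.61 and 1.53.

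Antigen presentation genes were split by treatment for class II and less so for class I. The 12 class II genes had medians of 0.80, -0.65 and 2.11 in the average, untreated and treated mice, and 1 of them, H2-Eb1, was shared by the treatments. Their sums were 692, 2643 and 1837 CPM in treated heterozygous and 660, 220 and 455 CPM in treated wild-type libraries. Heterozygous replicate 1 thus lay close to the highest treated wild-type library. The 19 class I genes had medians of 0.59, 0.41 and 0.77, with 8 higher and 2 lower at an unadjusted p under 0.05. The class II sum was 3062 CPM in untreated wild-type replicate 2, against 372 and 538 in the other two. Their median was 1.66 without that library and 0.26 without untreated heterozygous replicate 3, where the class I median was 0.33. With a sex covariate the class II and class I medians were -0.03 and 0.12. Interferon response genes were opposite in the treatments, with medians of 1.32 in untreated and -0.66 in treated mice over 30 genes. A single library stood apart in each treatment: their summed level was 761 CPM in untreated heterozygous replicate 3, against 248 and 180 in the other two, and 596 CPM in treated wild-type replicate 3, against 206 and 192. The median of the average, 0.28, was -0.15 without the former and 0.73 without the latter. The guanylate-binding protein gene Gbp2 had fitted values of 1.40 in untreated and 1.29 in treated mice, with an adjusted p of 0.60 in the average. Its untreated counts were 247, 341 and 3890 in heterozygous and 530, 619 and 411 in wild-type mice, so the untreated value rests on heterozygous replicate 3 and the other two lay below every wild-type library.

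Myeloid lists had opposite signs in the treatments. Macrophage and monocyte genes had medians of 0.03 in the average, -0.80 in untreated and 0.88 in treated mice, neutrophil genes 0.16, -1.51 and 1.02, and dendritic cell genes 0.25, -0.84 and 1.06. Of these 55 genes 1 was higher and 1 lower at an unadjusted p under 0.05 in the average, Lcn2 and Retnlg of the neutrophil list. Summed macrophage and monocyte genes were at 10716 CPM in untreated wild-type replicate 2, against 2980 and 4602 in replicates 1 and 3. Without that library the median of the average was 0.37 for them and 0.66 for dendritic cell genes. The neutrophil median ranged from -0.37 to 0.53 across the fits without 1 library. With a sex covariate the treated medians were 0.31, 1.08 and 0.36 in the order above. Sex and genotype coincide in treated mice, so this fit cannot separate them there.

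Tumour cell lists had medians of different sizes. The 24 duct and classical epithelium genes had medians of -0.08, 0.34 and -0.59 in the average, untreated and treated mice. Gata6, a transcription factor of the classical subtype, was -0.94 ± 0.30 (SE), with an adjusted p of 0.47. Proliferation genes had a median of 0.11, with 0 of 22 under an unadjusted p of 0.05 in either direction. The 22 glycolysis and hypoxia genes had medians of -0.35 in the average, 0.02 in untreated and -0.69 in treated mice, with 21 of 22 lower in the average, 22 of 22 lower in treated mice and 0 under that p in the average. Without untreated wild-type replicate 3 their median was 0.06. The 13 squamous and basal-like genes had a median of 0.35, with 3 higher and 2 lower at that p, and -0.28 without untreated heterozygous replicate 2. Areg, an epidermal growth factor receptor ligand, was -1.72 ± 0.42 (SE), with an adjusted p of 0.32, and Phlda1 followed at -0.72 ± 0.28 (SE). The 17 genes of gemcitabine transport and metabolism had a median of -0.04, and 0 of them were under that p in the average.

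Markers of other tissues differed in level beside the acinar genes, with 0 of them past the adjusted threshold. Islet genes had a median of -1.32 in the average, -3.83 in untreated and 1.09 in treated mice, with a highest sum of 331 CPM in an untreated wild-type library. Without that library the islet median was -0.70. Hepatocyte genes had a median of -0.58, or -0.26 without treated wild-type replicate 1. With the acinar sum as a covariate the matrix protein median was -0.36, the T cell median 2.17 and the class II median 1.94, while the islet median turned to 0.52. Beyond these covariate fits, the part of sex and of admixed tissue was not tested.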

How the data were processed

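Bulk RNA of 12 snap-frozen tumours was sequenced after removal of ribosomal RNA, per the labels' protocols. The authors deposited an expected count per gene and library, made with RSEM on GRCm38, per the submitters' processing notes; the values are whole numbers. The sources used here do not give the RSEM version, aligner, annotation or strand setting, and how RSEM divides reads among near-identical genes bears directly on the values of such genes.

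The counts were fitted as 4 group means with edgeR 4.0.16 (R 4.3.3): low-count filter by filterByExpr, which kept at least 99.865% of each library's counts, TMM scaling (0.897 to 1.09), and a robust quasi-likelihood test. P-values were adjusted by Benjamini-Hochberg over 24065 genes, with a threshold of 0.05. The contrasts were the genotype average, genotype within each treatment, and the difference of these effects. Near-identical copies of the called genes (at least 95% identity over at least 50% of a transcript, blastn 2.17.0, GENCODE M21 transcripts) were also summed before a fit. The test was tried on simulated data. Alternatives included DESeq2 1.42.0, limma 3.58.1 (voom), other scaling and filters, sex and acinar covariates, a replicate block and leaving out each library.

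The rule for named genes took Cdh11, up to 12 called genes in each direction (filled to 5 by smallest p where fewer passed), up to 8 shared genes and 5 genes for the difference of effects in each direction, and up to 4 members of each list by smallest p in the average, leaving out predicted, RIKEN, clone-named, pseudogene and sex-list entries. Gm10260, Gm11361 and BC023719 were added as called genes, and copies and neighbours of called genes after their values were seen. The members and lists were chosen with earlier results of these data known. Same-numbered libraries of the 2 genotypes had correlations of their deviations between -0.247 and 0.136, so the numbers were not taken to pair them. A gene that this rule named is not reported here.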

Additional observations from a re-analysis of the deposited data

Results flagged for a closer look

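The wild-type untreated replicate 3 had a Gm11361 level of 0.89 on the log2 CPM scale, far below the other 5 wild-type libraries. Summed islet genes stood apart in treated heterozygous replicate 2, at 6.71 on the log2 CPM scale. Summed T cell genes were low in treated wild-type replicate 2, at 6.08, and summed class I genes were high in untreated wild-type replicate 2, at 10.39. Most of that T cell sum, 67.7 CPM, was Thy1, at 48.6 CPM, which fibroblasts also express. These 4 were found among 40 groups of 6 libraries checked, where chance gives about 1 in 20.

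The genotype effect differed between the treatments for Gm10260, by 5.82 on the log2 scale, and for BC023719, by a fitted 9.65 that depends on the prior count because untreated heterozygous libraries are at 0. Each had an adjusted p of 0.0048 in edgeR's test of the difference. Summed with their near-identical copies, the differences were -0.87 and -0.27, with adjusted p of 0.507 and 0.841.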

How the results depend on the processing

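In edgeR's test 8 genes were called in the average, 4 in untreated mice, 1 in treated mice and 2 for the difference of effects. DESeq2 gave 304, 703, 237 and 652, with 146 called genes shared by the treatments in place of 8 and 318 opposite genes in place of 205. Limma voom gave 0 in treated mice, 1 for the difference and 91 same-direction genes in place of 148. No low-count filter gave 10 in untreated mice. A sex covariate, which coincides with genotype in treated mice, gave 3 in the average, 0 in treated mice, 2 shared and 27 opposite. An acinar covariate gave 4 in the average, 4 shared and 90 opposite. The replicate block, with numbers that do not pair the mice, gave 4 in the average, 0 in treated mice and 4 shared. An additive model gave 4 in the average. The 6 untreated libraries alone gave 2 and the 6 treated alone 12. Without 1 library the average ranged from 3 to 13, untreated from 2 to 12, treated from 0 to 4, the difference from 2 to 7, shared from 3 to 12, same-direction from 110 to 165 and opposite from 75 to 353. With copies summed, Gm10260 and Gm11361 turned to 0.18 and BC023719 to 0.56. The cause of the other moves was not tested. Of 5073 alternative values of 212 named genes, 4947 kept their direction and side of the threshold. With 3 mice a group, 20% of simulated 2-fold changes were recovered in the average.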
